A study of Mus musculus with 4 samples.

Results

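Rad21 regions that were called only in cells without 53BP1 are described here. Peaks of 4 lists on chromosomes 1 to 19 and X were merged into regions where they touched or overlapped, and a region was taken when it held a peak of both knockout lists and of neither wild-type (WT) list. This gave 1058 of 34743 merged regions, or 3.05%. They were chosen by the calls in these same 4 lists, so their number and their strength are a description and carry no test. Position, spacing, width and surroundings are compared with those of 3070 regions called in exactly 1 WT and 1 knockout list. These mixed regions also rest on 2 calls but do not separate the genotypes.

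The material was mouse pro-B cells transformed by v-Abl, that is, B cell progenitors that a viral kinase has immortalised. All were RAG1 deficient and carried the Emu-Bcl2 transgene, and all had been kept for 4 days in 3 uM STI-571, an inhibitor of that kinase which arrests the cells. The transgene keeps arrested cells alive, and without RAG1 the antigen receptor genes are not cut. The WT group (2 libraries) had no further change, and the 53BP1 knockout group (2 libraries) lacked 53BP1 in addition. The labels do not say whether libraries of a group came from separate cultures or clones, so the spread between them may be technical. Sample titles and the extraction protocol name a Rad21 antibody, whereas the treatment field of each sample names one against 53BP1. The former name is used below. Peak lists hold no measure of 53BP1, so the genotypes rest on the labels.

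Rad21 is the kleisin subunit that closes the cohesin ring. Cohesin extrudes chromatin into loops and pauses where the zinc finger protein CTCF is bound, so that strong Rad21 sites often mark loop anchors, while weaker sites can lie at enhancers and active promoters. 53BP1 binds modified nucleosomes around DNA double-strand breaks and protects the ends from resection. In pro-B cells loop extrusion brings distant antigen receptor gene segments together for recombination.

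List lengths were 21971 (WT replicate 1), 23029 (WT replicate 2), 25145 (knockout replicate 1) and 22792 (knockout replicate 2). Sequencing depth is unknown, since the lists give no read counts, and a shallower or less enriched library lists fewer peaks for that reason alone. Knockout replicate 2 stood apart from the other libraries. It had the lowest median fold, 3.67 against 4.06 to 4.15, where fold is the enrichment of a peak over its local background, a value of the authors' peak caller. It also carried 14.7% of its peaks on chromosomes 5 and 10, against 11.6 to 11.8% in the other lists. Every knockout-only region needs a peak from this library.

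The first question was how this set compares in size with sets that do not follow genotype. Regions called in both WT lists alone numbered 760. The mixed classes held 849 regions (WT 1 with knockout 1), 474 (WT 1 with knockout 2), 1009 (WT 2 with knockout 1) and 738 (WT 2 with knockout 2). Set against the 3.05% of all merged regions in the knockout-only class, WT-only regions were 2.19% and these mixed classes 2.44%, 1.36%, 2.9% and 2.12%. The knockout-only class was thus the largest of the 6 classes of exactly 2 lists, followed by the one that paired the longer WT list with the longer knockout list.

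**Figure D1:**
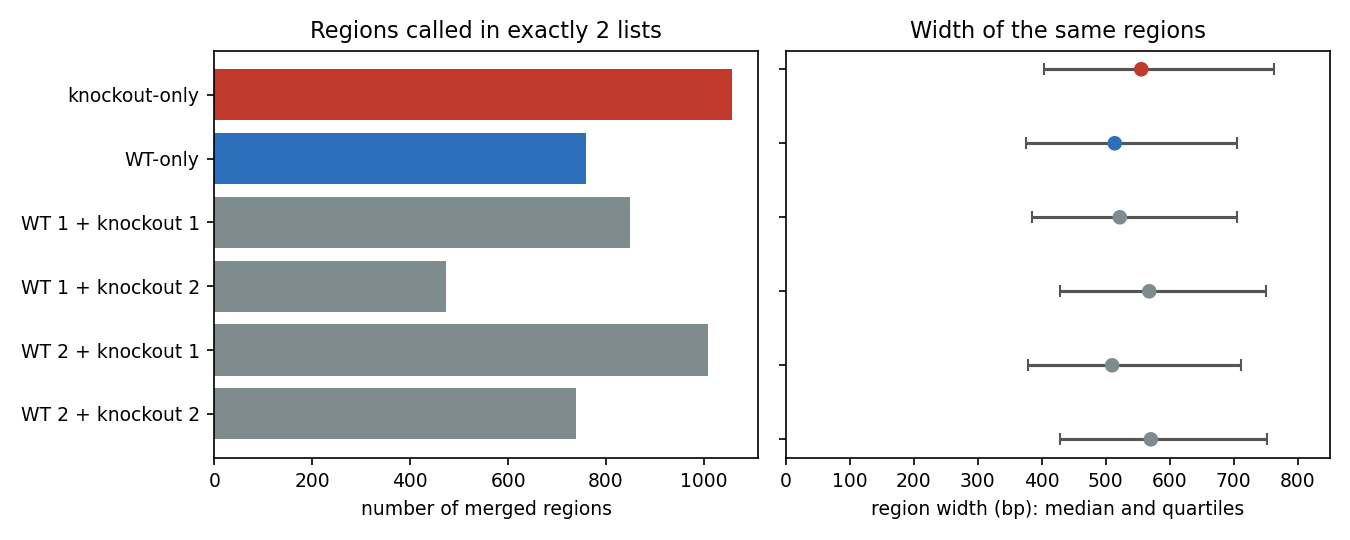
Left, number of merged regions called in exactly 2 lists, for each pair of lists; right, width of the same regions in bp, with points at the median and bars between the quartiles. The knockout-only class (red, 1058 regions) is the largest, and its median width of 555.5 bp lies inside the range of the mixed classes (grey, 510 to 570.5 bp).

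Knockout-only regions held weak peaks in both lists that called them. In knockout replicate 1 their median fold was 3.71 (quartiles 3.41 and 4.08), and in replicate 2 it was 3.49 (3.26 and 3.85). Their −log10 q, the significance of a peak after correction as the authors' caller gave it, had a median of 1.96 in each list. Within the same lists, peaks in regions called by all 4 libraries had a median fold of 4.58 in replicate 1 and 3.802 in replicate 2, with a −log10 q of 4.42 and 3.45. Mixed regions gave nearly the same values as the knockout-only ones. Their median fold was 3.74 and 3.73 in replicate 1 and 3.457 and 3.501 in replicate 2. Peaks that 1 knockout list alone had called were weaker still, with medians of 3.57 and 3.44.

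Individual regions ranged widely around these medians. Folds ran from 2.41 to 6.53 in replicate 1 and from 2.14 to 5.85 in replicate 2, and the rank correlation between the lists was 0.22 over the 1058 regions, a description in which both values were cut off from below by the calling. It was 0.23 to 0.35 in the mixed classes. Of the regions, 551 (52.1%) lay in the weaker part of both lists, under the 50th percentile of fold, and 113 (10.7%) lay above it in both. A −log10 q of at least 2 in both lists was reached by 263 regions (24.9%), against 24.5 to 27.6% in the mixed classes. At 3 the number was 29 (2.74%, mixed 2.53 to 4.59%), and at 5 it was 3 (0.284%, mixed 0.0991 to 0.589%).

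**Figure D2:**
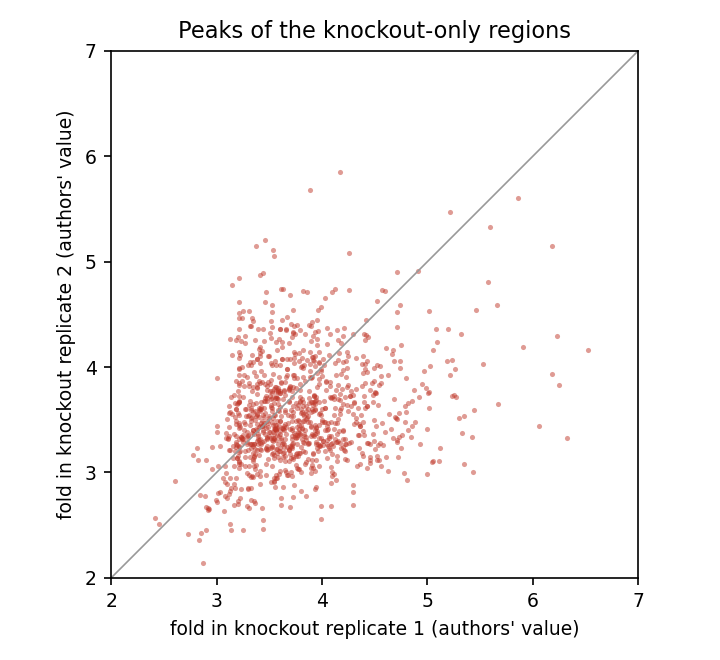
Fold of the 2 peaks in each of the 1058 knockout-only regions, replicate 1 on the x axis and replicate 2 on the y axis, both as the authors' caller gave them; the grey line marks equal values. Most points sit between 3 and 5 on both axes with little relation between the lists (rank correlation 0.22).

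The strongest members were few and scattered. The region whose lower fold was highest, chromosome 12 at 121045829 to 121046677, had a −log10 q of 5.96 and 10.2. It was 173416 bp from the nearest region of all 4 lists, and the nearest WT peak was equally far. A second member past 5 in both lists, chromosome 3 at 26732496 to 26733904, had folds of 6.23 and 4.29 and a −log10 q of 6.81 and 5.65. It was 1409 bp wide and stood 232244 bp from the nearest WT peak. The third, on chromosome 5 at 144046141 to 144046796, lay 13917 bp from a region of all 4 lists. Further down the ranking by the lower fold, chromosome 13 held the members of rank 6, 8 and 9, at 88611964 to 88612484 (folds 5.58 and 4.81), 75678712 to 75679149 (4.59 and 4.72) and 30185093 to 30185481 (5.66 and 4.59). The member of rank 10 was on chromosome 12 at 56639375 to 56639830 (4.74 and 4.58). Their distances to a region of all 4 lists ran from 7697 bp to 165483 bp, a wider span than that between the quartiles of the whole class. No mm9 annotation was used here, and regions carry no gene names.

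Values near the limits of the rule were read on both sides of it. A −log10 q of at least 1.3 in both lists was reached by 848 members (80.2%, mixed classes 82.2 to 84.9%). The member with the lowest −log10 q, on chromosome 11 at 13793183 to 13793598, had 1.01 in replicate 2 and 4.56 in replicate 1. On the other side, 1924 regions were called in both knockout lists and 1 WT list, 891 with WT 1 and 1033 with WT 2. Their WT peaks started at a −log10 q of 1.03 and 1.01 and had medians of 2.19 and 2.16. Of these WT peaks, 46 and 58 were under 1.3. In the knockout lists these neighbours of the rule had medians of 3.86 and 3.57 (with WT 1) and 3.85 and 3.54 (with WT 2) in fold, slightly above the 3.71 and 3.49 of the knockout-only regions.

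Under stricter thresholds the knockout-only class was mostly made up of other regions. With peaks of a fold of at least 4 in every list, 391 regions were knockout-only, and 71 of them were members. The other 320 (81.8%) held a WT peak of lower fold, and 218 held one in both WT lists. The median fold of those weaker WT peaks was 3.73. With a −log10 q of at least 2, 650 regions were knockout-only, 263 of them members, while 387 (59.5%) held a weaker WT peak with a median −log10 q of 1.66.

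Each member consisted of exactly 1 peak per knockout list. Region width had a median of 555.5 bp (lower quartile 404 bp) and ran from 237 to 2039 bp. The upper quartile of 763.5 bp lay above those of all 4 mixed classes (705 to 752 bp), while the median and the lower quartile lay among theirs. In the mixed classes the medians were 522, 568, 510 and 570.5 bp, higher in the pair that held knockout replicate 2, whose peaks are wider throughout. The mixed regions together had 536 bp. This differs from the knockout-only median by less than the SD of 31.1 bp over the 4 mixed classes. These classes share lists and are not independent of each other, and that SD is mostly the gap between the classes with each knockout replicate. Within 1 list, where widths share a scale, replicate 1 peaks had a median width of 341 bp in knockout-only regions and 371 and 346 bp in mixed ones. Replicate 2 peaks had 421 bp, against 449 and 425 bp. Regions of all 4 lists were wider, with peaks of 564 and 653 bp in the same lists. Among members 66 were under 300 bp and 100 over 1000 bp.

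The widest members were weak. The first, on chromosome X at 166415794 to 166417832, spanned 2039 bp and had folds of 2.90 and 2.67, among the lowest 2% of either list (percentiles 0.712 and 1.36). The next, on chromosome 10 at 77215100 to 77217038, spanned 1939 bp with folds of 3.55 and 2.86. The narrowest ones spanned 237 bp, which is also the width of the narrowest peak in the replicate 2 list. One of them, on chromosome 3 at 21634656 to 21634892, had folds of 4.86 and 3.67.

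The 2 knockout peaks of a member often covered each other only in part. Their overlap had a median of 237 bp, and it reached at least 50% of the wider peak in 606 regions (57.3%, Wilson 95% interval 54.3 to 60.2%). In the mixed classes that share was 50.3 to 55.3%, and in WT-only regions 58.0% (54.5 to 61.5%). The 2 pairs of libraries of the same genotype had the highest shares of the 6 pairs, with intervals that overlapped those of 3 mixed classes at least in part. These intervals count regions and not libraries, and with only 2 such pairs the order carries no test of genotype. Peak centres lay a median of 98.8 bp apart in knockout-only regions, 96.5 bp in WT-only regions and 102.5 to 116 bp in mixed classes. An overlap under 100 bp occurred in 87 of the 1058 members, for which a small shift of an edge would break the region in 2. Such overlaps were about as frequent in the other classes. They occurred in 58 of 760 WT-only regions. Among mixed regions with 1 peak per list there were 75 of 848, 38 of 473, 87 of 1008 and 52 of 738.

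The next comparison was the distance to cohesin sites common to all libraries, which shows whether knockout-only calls gather beside constant sites or away from them. Knockout-only regions lay a median of 30321 bp (quartiles 13337 and 72410 bp) from the nearest region called in all 4 lists, edge to edge. Mixed regions together lay 30820 bp away, and the 4 mixed classes had medians of 27099, 30036.5, 31324 and 36302 bp. The difference of −499 bp was smaller than the SD of 3839 bp over those classes. WT-only regions lay 34380 bp away, and regions of all 4 lists had their own nearest neighbour of that kind at 30225 bp. Up to 500 kb the cumulative curve of the knockout-only regions stayed among those of the mixed classes.

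**Figure D3:**
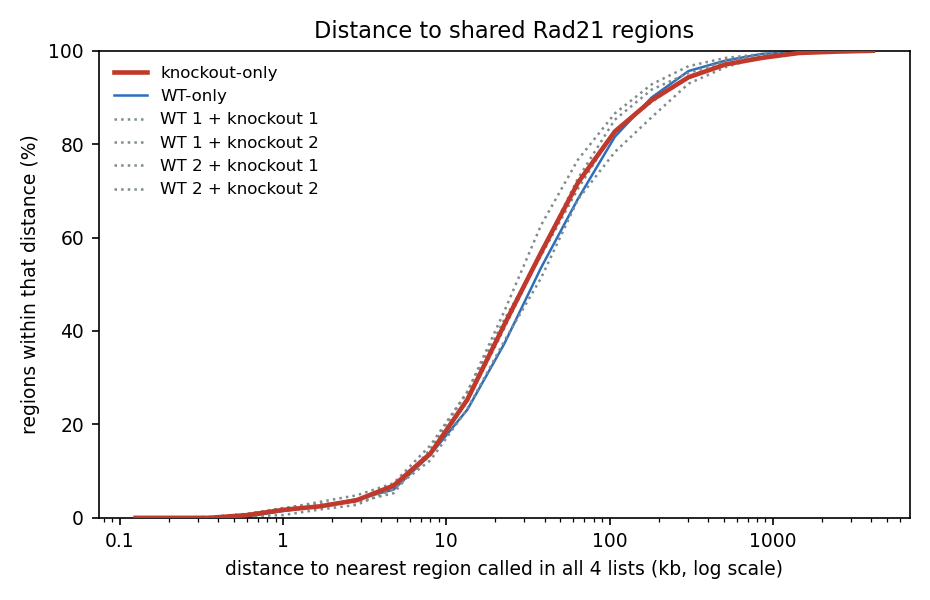
Share of regions (y axis, %) whose nearest region of all 4 lists lies within a given distance (x axis, kb, log scale), for knockout-only regions (thick red), WT-only regions (blue) and each mixed class (dotted grey). Up to 500 kb the red curve stays among the grey ones, with medians of 30321 bp against 27099 to 36302 bp.

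Counted by distance, 18 knockout-only regions (1.70%) were within 1 kb of a region of all 4 lists, 169 lay 1 to 10 kb away, 493 (46.6%) 10 to 50 kb, 179 at 50 to 100 kb, 168 at 100 to 500 kb and 31 (2.93%) beyond. Within 10 kb these were 187 regions, or 17.7% (15.5 to 20.1%), against 15.9 to 19.7% in the mixed classes. Over all merged regions the share was 18.3%. The share beyond 500 kb was 1.65 to 3.66% in the mixed classes. In the stretch between the flanking shared regions, members sat at a median of 49.8% of the way from its edge to its middle, and mixed classes at 47.7 to 50.7%. A placement without preference would give 50%. The stretches themselves had a median length of 136562.5 bp for members and 127717.5 to 172799.5 bp for mixed classes.

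The nearest members were separate peaks on the flank of a shared site. On chromosome 3 a region at 65331607 to 65332306 lay 405 bp from one, with folds of 3.70 and 3.13, and on chromosome 14 a region at 79523389 to 79523852 lay 431 bp away (2.99 and 2.73). At the other extreme, a region on chromosome 14 at 3651166 to 3651911 was 3817552 bp from any region of all 4 lists, with folds of 4.24 and 3.99. The one on chromosome 1 at 27957300 to 27957669 was 3252981 bp away (3.46 and 3.36) and had no region of any kind within 1212522 bp.

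WT peaks were also close to some members. The median distance to a WT peak was 15976.5 bp. Mixed classes, with the WT peak of the region itself left aside, had 13617 to 19113.5 bp, and regions of all 4 lists 16595 bp. A WT peak lay within 500 bp of 37 members and within 1 kb of 71 (6.71%). The closest case was on chromosome 9 at 15412901 to 15414207, where the gap was 1 bp, and on chromosome 12 at 86310282 to 86310556 it was 4 bp. Both were knockout-only by a few bases. At the far end 10.5% of members had no WT peak within 100 kb. Shares at these limits are not given for mixed regions, so they do not set the members apart.

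Spacing between members was measured at several scales. Of the 1058 regions, 176 (16.6%, 14.5 to 18.999%) had another knockout-only region within 100 kb. This measure grows with the size of a class. The mixed class closest in size, WT 2 with knockout 1 and 1009 regions, had 17.2% (15.0 to 19.7%), and the smaller classes had 10.5 to 12.6%. Within 1 Mb, 741 members (70.0%, 67.2 to 72.7%) had another one, above all 4 mixed classes (45.8 to 67.8%). The class of 1009 regions had 67.8% (64.8 to 70.6%), and its interval overlapped that of the members. The median distance from a member to the next was 427551.5 bp, below all 4 mixed classes (491655 to 1262195.5 bp). This distance shrinks as a class grows, and the knockout-only class was the largest. Linked at gaps of up to 100 kb, members formed 882 single regions, 82 pairs and 4 groups of 3, with none larger. The class of 1009 regions formed 835 single regions, 73 pairs, 8 groups of 3 and 1 larger group. For 45 members (4.25%) the nearest region of any kind was another member, where members were 3.05% of all merged regions. This share was not tested.

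The 4 groups of 3 were loose. The tightest spanned 94590 bp on chromosome 9 from 7742724 to 7837313, with 6 regions in all, 1 of them called in every list. Its members had folds of 4.05 and 3.13, 4.17 and 3.75, and 3.45 and 3.30 in replicates 1 and 2. A group on chromosome 12 from 114000055 to 114112137 held 9 regions, of which 3 were called in every list. Its last member, at 114111296 to 114112137, lay 1339 bp from one of these. The group on chromosome 6 from 87114742 to 87286364 held 10 regions and contained the member with the highest fold in replicate 1, 6.53, at 87114742 to 87115123. The same member had 4.16 in replicate 2. The last group lay on chromosome 6 from 67789676 to 67904926, in the window of Igk, the kappa light chain locus, with folds of 3.41 to 3.93 in replicate 1 and 3.59 to 3.70 in replicate 2.

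In windows of 1 Mb, 744 of 2302 (32.3%) held a member, 63 held at least 3, and the most was 5. Windows with 5 lay on chromosome 6 at 87 to 88 Mb (41 regions, 18 of them in all lists), chromosome 13 at 67 to 68 Mb (31 and 8) and chromosome 17 at 21 to 22 Mb (27 and 16). In the mixed class of 1009 regions, 719 windows held one, 55 held at least 3 and the most was 6.

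The surroundings of members were then compared with those of mixed regions. Within 250 kb of a member's centre lay a mean of 13.1 other regions, of which 5.65 were called in all lists. Mixed classes had 11.8 to 14.0 and 5.03 to 6.01. Of the neighbours called in 1 list alone, 64.5% (2698 of 4181) came from a knockout list, against 62.6 to 65.5% around mixed regions and 63.9% around regions of all 4 lists. Around members, other knockout-only regions numbered 0.431 on average and WT-only regions 0.244, both inside the mixed ranges of 0.355 to 0.451 and 0.232 to 0.305. The median number of regions of all lists within 500 kb was 10 for members and 8 to 10 for mixed classes.

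**Figure D4:**
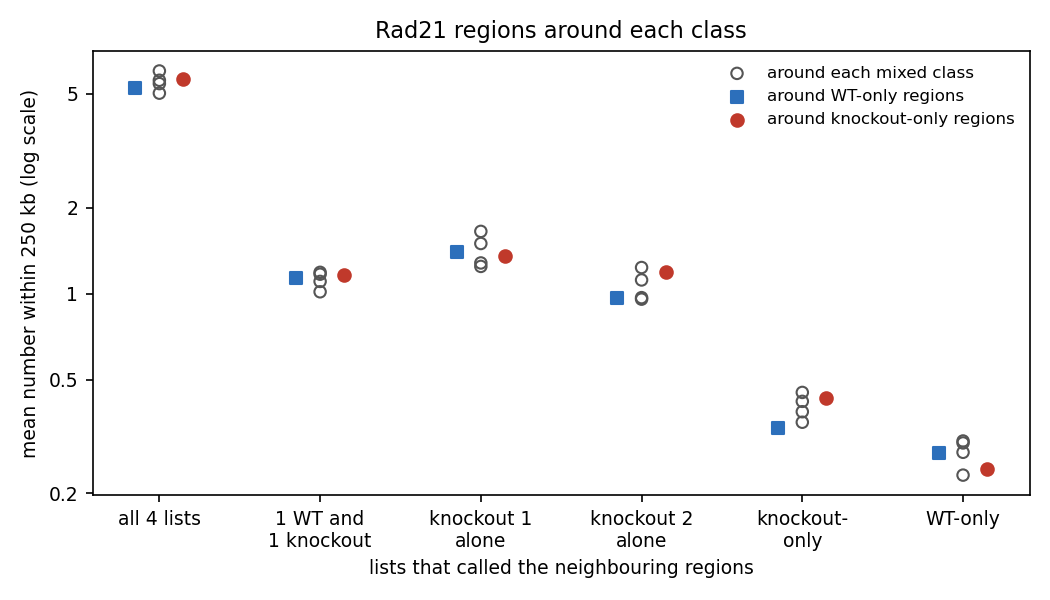
Mean number of neighbouring regions within 250 kb (y axis, log scale), sorted by the lists that called the neighbours (x axis), around knockout-only regions (red), WT-only regions (blue squares) and each mixed class (open circles). The red points lie within the spread of the open circles, for example 5.65 against 5.03 to 6.01 for neighbours called in all 4 lists.

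On chromosomes 5 and 10, where knockout replicate 2 had called more, members were also more frequent. Chromosomes 5 and 10 carried 171 of the 1058 regions, 16.2% (14.1 to 18.5%), where all merged regions had 12.8%. Mixed classes with knockout replicate 2 had 21.3% and 17.1%, and those with knockout replicate 1 had 7.66% and 7.83%. The difference from all mixed regions was 4.08 percentage points, and the SD over the classes was 6.83. That SD is mostly the gap between the classes with each knockout replicate, so it does not show whether the difference is unusual. Against the mixed regions that hold knockout replicate 2, a comparison added after seeing the data, the difference was −2.57 points. On these 2 chromosomes 30.2% (26.6 to 34.1%) of the replicate 1 regions without a WT peak were shared with replicate 2, against 20.7% (19.55 to 21.97%) elsewhere. In the other direction, 18.98% (16.6 to 21.7%) of the replicate 2 regions without a WT peak were shared with replicate 1, against 26.7% (25.2 to 28.2%) elsewhere. Both shares count the members, so they rest on the calls that the rule used and are a description only. Without a WT peak, replicate 1 had 566 regions on these 2 chromosomes and replicate 2 had 901, and more such regions in a list lower its own share. The part of knockout replicate 2 in the count on chromosomes 5 and 10 cannot be told apart from genotype within the class, since each member holds one of its peaks. The other chromosomes held 887 members, with a median width of 550 bp and a median distance of 31433 bp to a region of all lists.

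**Figure D5:**
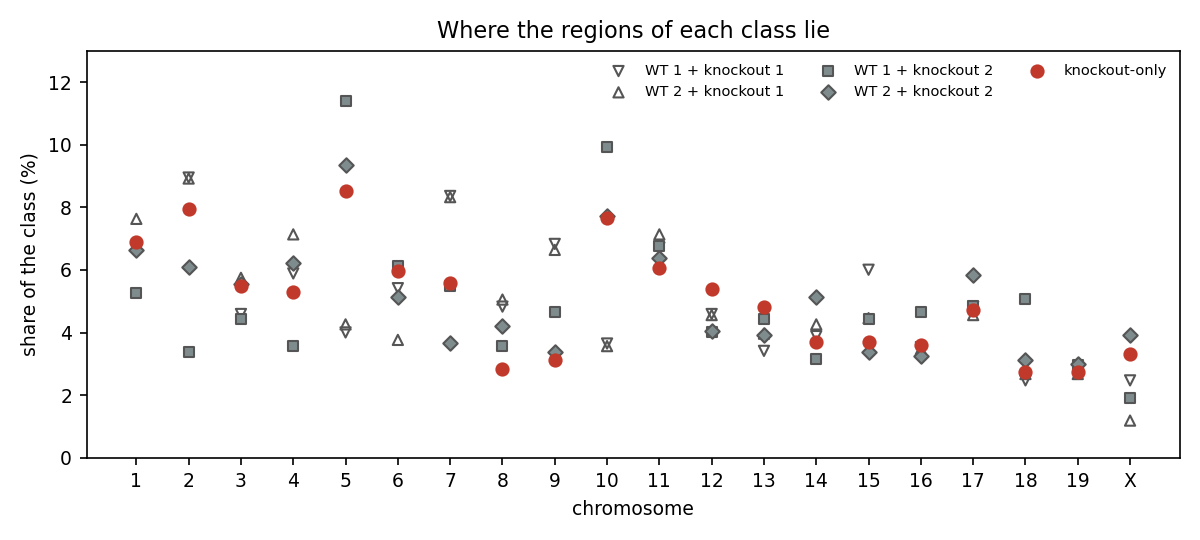
Share of each class (y axis, %) on each chromosome (x axis) for knockout-only regions (red) and the 4 mixed classes, with open triangles for those that hold knockout replicate 1 and filled grey symbols for those that hold knockout replicate 2. On chromosomes 5 and 10 the red points, at 8.51% and 7.66%, lie near the filled symbols and above the open ones.

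On 11 of 20 chromosomes, the share of knockout-only regions was closer to the mean of the mixed classes with knockout replicate 2 than to that of the classes with replicate 1. On 15 of 20 it lay within the range of the 4 mixed classes. It lay above all of them on chromosomes 12 (5.39% against 4.01 to 4.59%) and 13 (4.82% against 3.42 to 4.43%), and below on 8 (2.84% against 3.59 to 5.05%), 9 (3.12% against 3.39 to 6.83%) and 11 (6.05% against 6.37 to 7.14%). WT-only regions had the same share on chromosome 12 (5.39%), so that value is not particular to the knockout-only class. They had 3.42% on 13, 5.79% on 8, 7.11% on 9 and 7.11% on 11. As a share of a chromosome's own regions, the class was highest on X, with 35 of 843 or 4.15% (3.00 to 5.72%). It followed on chromosome 10 with 3.93% (3.17 to 4.85%), on 5 with 3.77% (3.08 to 4.61%), on 13 with 3.73% (2.85 to 4.87%) and on 12 with 3.58% (2.78 to 4.61%). The lowest were chromosomes 9, with 1.77% (1.26 to 2.48%), and 8, with 1.90% (1.33 to 2.69%). The high value on X was not particular to the members. Of the knockout-only class 3.31% lay on X, against 3.93% of the WT 2 with knockout 2 class. The remaining mixed classes had 1.19 to 2.47% there. Along the chromosomes, 9.55% of members lay in the first 10% of the called span and 13.9% in the last 10%, against 7.93 to 9.76% and 10.0 to 15.8% in mixed classes.

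The antigen receptor loci, where V(D)J recombination takes place, held 16 members among 426 regions, 3.76% (2.32 to 6.01%), against 3.04% of regions elsewhere. Igh, the heavy chain locus, had 6 of 140 regions (4.29%, 1.98 to 9.03%) and Igk 7 of 161 (4.35%, 2.12 to 8.70%). Tcra and Tcrd had 2 of 91 and Tcrb 1 of 16, while 0 of 9 were found in each of Igl and Tcrg. All intervals include the share elsewhere. The first Igh member by the lower fold lay at 116343660 to 116343957 with folds of 4.91 in each list, and the next at 115064539 to 115065072 (4.46 and 3.78) and 116460909 to 116461420 (4.22 and 3.71). In Tcra and Tcrd, the region at 53443702 to 53444100 on chromosome 14 had a −log10 q of 4.08 and 4.12 and lay 1865 bp from a region of all lists. The Tcrb region, at 41221499 to 41222561 on chromosome 6, was 1063 bp wide and had folds of 3.18 and 3.86.

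For the 7 measures fixed for testing, which were chosen with earlier results of these data known, libraries were permuted and not regions. In each of the 6 arrangements of 2 libraries against 2, the regions called by exactly the 2 libraries given the knockout label were compared with the mixed regions of that arrangement. The smallest p this allows is 0.17, so 0.05 could not be reached. The two-sided exact permutation p was 0.833 for region width, 0.833 for the distance to a region of all lists, 0.833 for the share within 10 kb, 1 for the distance to any region, 1 for the number of shared regions within 500 kb and 0.833 for the share on chromosomes 5 and 10. It was 0.333 for the share with another region of the class within 100 kb (16.6% against a mean of 12.8% ± 3.07, SD, n = 4 mixed classes), the measure that grows with class size. None passed, and with Benjamini-Hochberg adjustment over the 7 all were 1. With so few arrangements, these p-values do not show that the classes are alike. The p for chromosomes 5 and 10 decides nothing about genotype. Knockout replicate 2 had called more there, and the rule required one of its peaks in every member.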

How the data were processed

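Rad21 ChIP-seq peak lists of 4 libraries were used. Per the labels' protocols, cells were fixed with 1% formaldehyde, and, per the submitters' processing notes, MACS2 2.2.7.1, Bowtie2 2.4.4, deepTools 3.5.1 and SAMtools 1.15.1 were used with the build mm9. Neither parameters nor a control library are given in the sources used here. Peaks were called per library. The deposited fold is a ratio of signal to background per peak, the deposited −log10 p and −log10 q are the caller's, and the score the authors deposited is the whole part of 10 times that −log10 q (checked to within 1). No read counts are given, so precision from depth is unknown. Wilson intervals treat regions as independent and cover counting error only. The reference table was of GRCm38.p6 (last gene of chromosome 1 at 195291439, last peak at 197182419), so no gene, sequence or motif was assigned, and the planned CTCF motif search was not run.

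Peaks were merged with pandas 2.3.3 and NumPy 2.4.6, tested on simulated data. Peaks on the mitochondrial sequence (1 or 2 per list) were set aside. Distances are edge to edge on one chromosome, and coordinates are 1-based. Receptor loci were approximate mm9 windows from background knowledge. The class, its measures and the rule for named regions (strongest by the lower fold, widest, narrowest, nearest, farthest, densest groups, up to 3 per receptor locus, and the 5 chromosomes with the highest share) were chosen with earlier results of these data known. Alternatives were thresholds on q and fold, equal list lengths, other merging and distance rules, chromosomes left out, libraries left out and a replicate block.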

Additional observations from a re-analysis of the deposited data

How the results depend on the processing

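Of 58 values recomputed under other settings, libraries left out aside, 10 moved by more than the SD over the mixed classes or, for the number of regions, by over 1.5 times. At a −log10 q of at least 2 there were 650 knockout-only regions, and their share within 10 kb of a shared region exceeded the mixed one by 2.11 percentage points. At a fold of at least 4 there were 391, and knockout-only minus mixed became −37 bp in width, −7323.5 bp in distance to a shared region, 2117 bp in distance to any region and −2.88 points in the share with a class neighbour within 100 kb. With 21971 peaks from every list the share within 10 kb differed by 2.43 points and the number of shared regions within 500 kb by 1. Counted within 1 Mb, the share with a class neighbour was 70.0% and exceeded the mean of the mixed classes by 11.6 points, while the mixed class closest in size had 67.8%. The SD of this 1 Mb share itself over the mixed classes was 10.5 points. The cause was not tested.

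Leaving out 1 library gave 1946 knockout-only regions (without WT replicate 1), 2091 (without WT replicate 2), 4276 (without 53BP1_KO replicate 1) and 4906 (without 53BP1_KO replicate 2), higher by construction, since fewer lists have to agree. Without a WT library the share with a class neighbour differed by −0.457 to 0.597 points and the number of shared regions by 0 to 1. Without a knockout library no mixed class of equal size exists and no difference could be formed. Of the 1058 regions, 732 remained with lists of equal length, 1021 with peaks up to 500 bp apart merged and 971 with 100 bp of overlap required.

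In the replicate block, mixed regions were limited to pairs of the same number. Knockout-only minus mixed was then −433 bp in distance to a shared region and 4.13 points in the share on chromosomes 5 and 10. Same-numbered mixed classes held a mean of 793.5 regions and the others 741.5, and differences between replicates in 1 Mb windows had a correlation of 0.03 between WT and knockout, so the numbers were not taken to pair the libraries.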
